A study of Mus musculus with 4 samples.

Results

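The 9 genes described here, of 32285 listed genes, encode the muscle acetylcholine receptor and the proteins that gather it at the neuromuscular junction, the contact between a motor nerve and a muscle fibre. They were chosen by name: the subunit genes Chrna1, Chrnb1, Chrnd, Chrng and Chrne, the receptor kinase gene Musk, its partners Lrp4 and Dok7, and the anchoring protein gene Rapsn. They were read in single-cell RNA sequencing of muscle stem cells (MuSCs) and the cells derived from them, sorted from mouse hindlimb by a tdTomato reporter. Each of the 2 control and 2 α-cdKO samples was pooled from 2 littermates, so the spread between samples is one between pools.

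All mice were C57BL/6J, aged 3 to 4 months, and all carried the Pax7CreERT2 allele and the Rosa26-tdTomato reporter. Controls were Pax7CreERT2/+; Rosa26-tdTomato+. The α-cdKO mice were in addition Ctnna1 fl/fl and Ctnna3 fl/fl, so that tamoxifen removed the αE- and αT-catenin genes, whose products tie cadherin junctions to actin, from cells expressing Pax7. Tamoxifen was given on 5 consecutive days from 2 to 3 months of age, and cells were collected 14 days later. The recombinase acts in Pax7-expressing cells, so fibres carry the deletion only through cells that joined them. The Ctnna1 level in myogenic cells was 91.1 CPM (UMIs of the gene per 1000000 UMIs of the summed cells) in control 1, 74.9 CPM in control 2, 79.3 CPM in α-cdKO 1 and 75.6 CPM in α-cdKO 2, and Ctnna3 had 1, 2, 2 and 7 UMIs in the same order. The 3′ tags of these genes may lie outside the deleted part, so they did not check the genotype.

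The muscle receptor is an ion channel that opens when acetylcholine binds. The fetal form holds 2 α subunits (Chrna1) with a β, a δ and a γ subunit (Chrnb1, Chrnd, Chrng), and in adult fibres the ε subunit (Chrne) takes the place of γ. Nerve-derived agrin binds Lrp4, which switches on the kinase MuSK, with Dok7 as its intracellular activator, and rapsyn (Rapsn) then anchors the receptors in clusters. Myogenic regulatory factors such as Myod1 and Myog bind E-box motifs in front of several subunit genes, while nuclei under the synapse also use the N-box motif. In adult muscle, expression of these genes is largely kept to those few nuclei.

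The counts are UMIs (unique molecular identifiers, 1 per captured RNA molecule) at the 3′ end of transcripts. Libraries held between 46099310 and 74921651 UMIs, and 28790 of 31254 barcodes passed the filters (1000 or more UMIs, 400 or more genes and less than 15% of UMIs from mitochondrial genes). Median UMIs per kept barcode ranged from 6452.5 in α-cdKO 1 to 8075 in control 2. Between 9 and 26 barcodes were shared by each pair of libraries, at most 0.383% of the smaller one.

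Over the kept cells Musk had 16868 UMIs, Chrna1 10682, Rapsn 10410 and Chrnb1 8890. Far fewer came from Dok7 (545), Lrp4 (252), Chrnd (198), Chrng (194) and Chrne (20). These totals set the precision of each gene rather than the order of their RNA levels, since 3′ capture differs between genes. Levels are compared below within a gene, as CPM of UMIs summed over the cells of a class in a sample.

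Promoters of the members that the results turn on are shown because several are classical targets of E-box and N-box factors. The 250 bases before the start in RefSeq (GRCm38.p6) are given on the gene's strand, with every E-box (CANNTG) and N-box (CCGGAA) in capitals. Of the 9 members 6 matched the promoter table. The Chrna1 window lies at chr2:73580339-73580588 on the minus strand, that of Chrng at chr1:87205561-87205810 on the plus strand, that of Dok7 at chr5:35056516-35056765 on the plus strand (the first of 2 listed starts, the other having no E-box), that of Musk at chr4:58285712-58285961 on the plus strand and that of Chrne at chr11:70619195-70619444 on the minus strand.
Chrna1: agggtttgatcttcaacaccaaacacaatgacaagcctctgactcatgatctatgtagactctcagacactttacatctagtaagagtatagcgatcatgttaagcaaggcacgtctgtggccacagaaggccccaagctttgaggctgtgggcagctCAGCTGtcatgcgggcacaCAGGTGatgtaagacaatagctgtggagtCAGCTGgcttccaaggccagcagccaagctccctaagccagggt
Chrng: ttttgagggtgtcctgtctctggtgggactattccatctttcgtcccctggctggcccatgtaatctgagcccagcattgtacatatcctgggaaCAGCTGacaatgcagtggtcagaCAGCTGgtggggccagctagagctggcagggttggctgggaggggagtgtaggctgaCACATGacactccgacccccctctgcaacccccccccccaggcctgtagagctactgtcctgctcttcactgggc
Dok7: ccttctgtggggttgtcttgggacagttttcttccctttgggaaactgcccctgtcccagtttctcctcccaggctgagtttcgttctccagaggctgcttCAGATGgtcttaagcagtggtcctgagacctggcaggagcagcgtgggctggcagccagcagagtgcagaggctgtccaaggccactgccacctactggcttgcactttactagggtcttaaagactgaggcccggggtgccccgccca
Musk: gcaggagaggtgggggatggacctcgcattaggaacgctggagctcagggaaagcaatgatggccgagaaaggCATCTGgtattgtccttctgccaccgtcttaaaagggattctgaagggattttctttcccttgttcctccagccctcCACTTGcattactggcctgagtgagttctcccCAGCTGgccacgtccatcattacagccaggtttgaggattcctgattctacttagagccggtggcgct
Chrne: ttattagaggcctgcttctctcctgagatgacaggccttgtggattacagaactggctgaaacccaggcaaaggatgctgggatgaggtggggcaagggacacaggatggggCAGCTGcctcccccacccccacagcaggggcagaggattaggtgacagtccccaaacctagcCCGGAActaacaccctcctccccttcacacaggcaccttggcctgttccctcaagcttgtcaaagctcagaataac
The windows of Chrna1, Chrng and Musk each hold 3 E-boxes, and those of Dok7 and Chrne hold 1. The Chrne window is the one of these 5 with an N-box. Both motifs were searched on both strands (the E-box reads the same on either) and they do not overlap here. Of 32807 promoters of the same length, 66.2% hold at least 1 E-box, 12.2% hold 3 or more and 12.0% hold an N-box, so these matches describe the letters and are not evidence of binding.

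In GRCm38 Chrnd (1:87190607-87200070) and Chrng (1:87204657-87212694) are neighbours on the plus strand. The Chrng window falls inside the longer gene span of the GENCODE annotation, which starts upstream of the RefSeq start. Chrna1 spans 2:73563215-73580338 on the minus strand and Musk 4:58285960-58374303 on the plus strand. Rapsn (2:91035620-91045729) and Lrp4 (2:91457511-91513779) are both on the plus strand of chromosome 2, and the end of Rapsn is overlapped on the opposite strand by Gm13778. Chrne (11:70614883-70619216) and Chrnb1 (11:69784036-69795943) are on the minus strand of chromosome 11, and 4930544D05Rik overlaps Chrne on the opposite strand. Dok7 spans 5:35056766-35087839 on the plus strand.

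To describe onset, the myogenic cells were divided by 2 genes that are not members: Myog, the factor that starts terminal differentiation, and Mymk, which encodes the fusion protein Myomaker. Neither gene was detected in 26255 cells. A Myog UMI without a Mymk UMI was found in 388 cells (33, 62, 196 and 97 in control 1, control 2, α-cdKO 1 and α-cdKO 2), and a Mymk UMI in 488 cells (35, 80, 221 and 152). Median depth differed between these classes, at 7356, 9611.5 and 15085.5 UMIs per cell, so a low-level Myog transcript is missed more often in the shallower ones.

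Chrna1 rose at both steps. In cells with neither gene it stood at 19.1 and 31.7 CPM in the controls and at 45.8 and 28.3 CPM in the α-cdKO samples. In Myog-positive, Mymk-negative cells it was 173.2, 217.4, 220.8 and 162.1 CPM in the same order, and in Mymk-positive cells 298.2, 372.7, 336.2 and 342.0 CPM. The 3 classes did not overlap in any sample, and their means were 31.2 ± 11.1, 193 ± 30.1 and 337 ± 30.6 CPM (SD, n = 4). The fitted log2 difference was 2.45 ± 0.14 (SE) at the Myog step (adjusted p = 5.96e-09, by the quasi-likelihood test of edgeR, adjusted after Benjamini and Hochberg over all genes) and 0.79 ± 0.14 at the Mymk step (adjusted p = 0.000352). The Mymk step of Chrna1 rested on the gate, at 0.21 (adjusted p = 0.391) when 2 UMIs were asked of each gating gene and 0.38 (adjusted p = 0.0890) when gates were read at 4000 UMIs per cell.

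**Figure D1:**
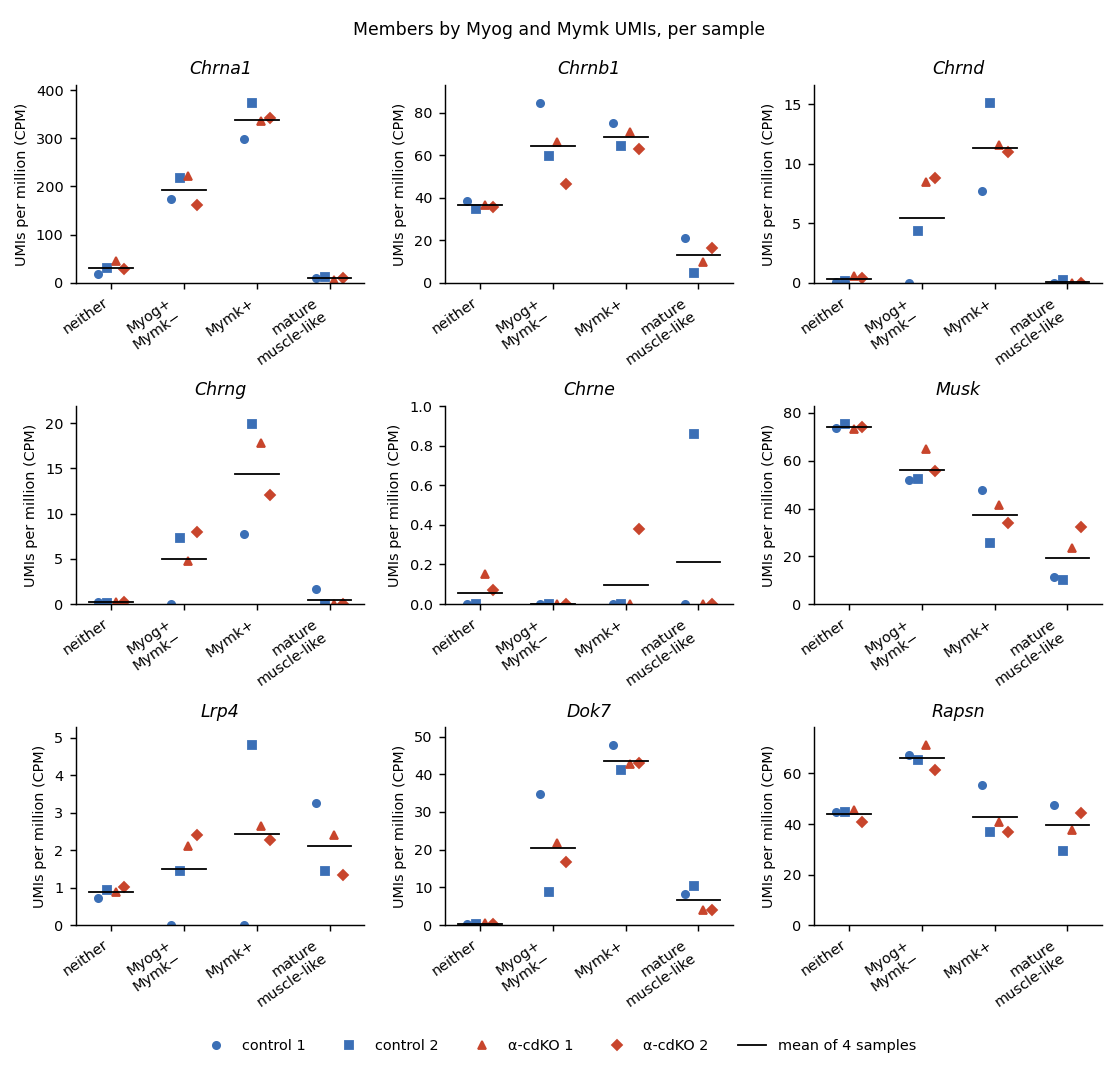
CPM of summed UMIs (vertical axes, linear from 0) of the 9 members in myogenic cells with neither Myog nor Mymk, with Myog alone or with Mymk, and in mature-muscle-like barcodes. Each symbol is 1 sample (control in blue, α-cdKO in red) and each line the mean of 4 samples, with Chrna1 means going from 31.2 to 193 to 337 CPM over the first 3 classes and Musk means from 74.0 to 56.2 to 37.1 CPM.

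The other subunits began from different levels. Chrnb1 was already present in cells with neither gene, at 36.5 ± 1.47 CPM (SD, n = 4), and was 64.1 ± 15.9 CPM in Myog-positive cells and 68.5 ± 5.74 CPM in Mymk-positive cells. It rose at the Myog step by 0.57 ± 0.12 on the log2 scale (adjusted p = 0.00209), and the Mymk step of 0.11 did not pass (adjusted p = 0.579). Chrnd and Chrng were close to absent before Myog, with 73 and 42 UMIs among the 26255 cells.

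Chrng, the fetal γ subunit, had 0, 5, 9 and 10 UMIs in Myog-positive cells and 5, 29, 54 and 32 in Mymk-positive cells of control 1, control 2, α-cdKO 1 and α-cdKO 2. As levels the latter were 7.7, 19.9, 17.8 and 12.1 CPM, against 0.15 to 0.22 CPM in cells with neither gene. The Mymk-positive class lay far above the cells with neither gene in every sample. The fitted step from Myog-positive to Mymk-positive cells was 1.40 ± 0.40 on the log2 scale. Without α-cdKO 1 this step was 1.1, with 2 UMIs asked of each gating gene 0.38 and with gates at 4000 UMIs 0.52. Chrnd, the δ subunit, had 0, 3, 16 and 11 UMIs and then 5, 22, 35 and 29 UMIs in these classes, or 7.7 to 15.1 CPM in Mymk-positive cells. For Chrnd the fitted Mymk step was 0.81 ± 0.45. Both genes entered the fit through the classes in which they were high. They reached the filter's 4.41 CPM in 0 samples of the cells with neither gene. In Myog-positive cells Chrng reached it in 3 of 4 samples and Chrnd in 2. Both steps of these genes are therefore described by the values above, with no test.

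Chrne, the adult ε subunit, had 1 UMI in the 876 cells with Myog or Mymk. In these cells Chrng made up 5 of 5, 34 of 34, 63 of 63 and 42 of 43 of the Chrng and Chrne UMIs, a mean share of 99.4%, with exact Clopper-Pearson 95% lower bounds of 47.8%, 89.7%, 94.3% and 87.7%. Such intervals, and all limits on zeros given here, cover counting error only. The γ subunit thus held nearly all of these UMIs, with 5 UMIs behind the value of control 1. In cells with neither gene the Chrne UMIs were 0, 0, 10 and 5, and the share of Chrng was 8 of 8, 6 of 6, 14 of 24 and 14 of 19.

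The full set of fetal subunits was seldom detected in 1 cell. Of the 488 Mymk-positive cells, 449 had a Chrna1 UMI and 120 had a Chrng or Chrnd UMI, 114 of them together with Chrna1. Chrna1, Chrnb1, Chrnd and Chrng were all detected in 19 cells.

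The synaptic signalling genes fell into opposite patterns. Dok7 went from almost none to a clear level: 0.2, 0.2, 0.6 and 0.3 CPM with neither gene, 34.6, 8.7, 21.8 and 16.8 CPM in Myog-positive cells and 47.7, 41.1, 42.6 and 43.1 CPM in Mymk-positive cells. Its lowest Myog-positive value came from control 2. Dok7 too reached the filter's level in 0 samples of the cells with neither gene, so its Myog step has no test here either. The log2 difference at the Mymk step was 1.17 ± 0.28 (adjusted p = 0.00382), and with the stricter gates 0.52 (2 UMIs, adjusted p = 0.266) and 0.51 (4000 UMIs, adjusted p = 0.216). Of the Dok7 UMIs in myogenic cells 83.9%, 90.4%, 81.3% and 86.0% lay in cells with Myog or Mymk, which held 2.39% to 7.03% of all UMIs.

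Musk, the receptor kinase, went the other way. It was 73.6, 75.3, 73.1 and 74.2 CPM in cells with neither gene, 52.0, 52.2, 64.7 and 55.9 CPM in Myog-positive cells and 47.7, 25.4, 41.3 and 34.0 CPM in Mymk-positive cells. The level went down at each step in each sample. It fell by 0.56 ± 0.13 on the log2 scale at the Myog step (adjusted p = 0.00449) and fell by 0.71 ± 0.16 at the Mymk step (adjusted p = 0.00226). The Mymk step was -0.27 with 2 UMIs asked (adjusted p = 0.458) and -0.44 with gates at 4000 UMIs (adjusted p = 0.114). Lrp4, the agrin receptor, stayed low throughout, at 0.893 ± 0.125, 1.49 ± 1.07 and 2.43 ± 1.96 CPM (SD, n = 4), with 8 and 21 UMIs behind the last 2 values.

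Rapsn was present before Myog at 44.6, 44.7, 45.4 and 40.9 CPM. In Myog-positive cells it was 67.1, 65.2, 71.1 and 61.5 CPM, and in Mymk-positive cells 55.3, 37.0, 41.0 and 37.0 CPM, so the peak in each sample was in the middle class. The rise was 0.42 ± 0.12 on the log2 scale (adjusted p = 0.0130), and Rapsn then fell by 0.74 ± 0.14 (adjusted p = 0.000407). The rise lost its call in 5 of the alternatives, such as without α-cdKO 1 (0.40, adjusted p = 0.0762) and with gates at 4000 UMIs (0.10, adjusted p = 0.551), and the later difference at those gates was -0.39 (adjusted p = 0.0813).

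Across the 9 members, 7 passed the low-count filter of this fit and Chrne and Lrp4 did not. At the Myog step Chrna1, Chrnb1 and Rapsn were called higher and Musk lower among the 4 members that reached the filter's level in each class, where 30.3% of 8968 genes tested were called in either direction (16.1% higher, 14.3% lower). At the Mymk step Chrna1 and Dok7 were called higher and Musk and Rapsn lower, where 35.4% of the genes were called. Chrng and Chrnd met the filter through the Mymk-positive cells and are not counted at this step. With gates read at 4000 UMIs per cell none of Chrna1, Dok7, Musk and Rapsn kept its call at the Mymk step. With 2 UMIs asked of each gating gene Rapsn alone did.

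The same order appeared when cells were ranked by Myog itself, after thinning each cell to 4000 UMIs. The 4 ranges of Myog UMIs (0, 1 to 2, 3 to 7, and 8 or more) held 24341, 206, 187 and 245 cells. Chrna1 was 32.8 ± 12.4, 245 ± 40.6, 327 ± 39.9 and 366 ± 31.9 CPM over them (SD, n = 4), most of its increase lying between no Myog and the lowest range. The mean of Dok7 climbed through the ranges, from 0.417 to 22.1 ± 12.9, 36.8 ± 11.9 and 60.5 ± 13.3 CPM. The mean of Musk declined, from 74.6 ± 0.953 to 52.3 ± 10.9, 37.7 ± 3.34 and 28.1 ± 17.1 CPM. Control 1 departed from both orders in the upper 3 ranges. Its Dok7 was 41.3, 22.1 and 79.3 CPM (8, 7 and 32 UMIs) and its Musk 62.0, 34.7 and 49.6 CPM (12, 11 and 20 UMIs). Chrng was 0.244, 10.4 ± 8.24, 15.7 ± 9.40 and 11.2 ± 7.30 CPM, and its upper 3 ranges did not differ beyond their spread.

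**Figure D2:**
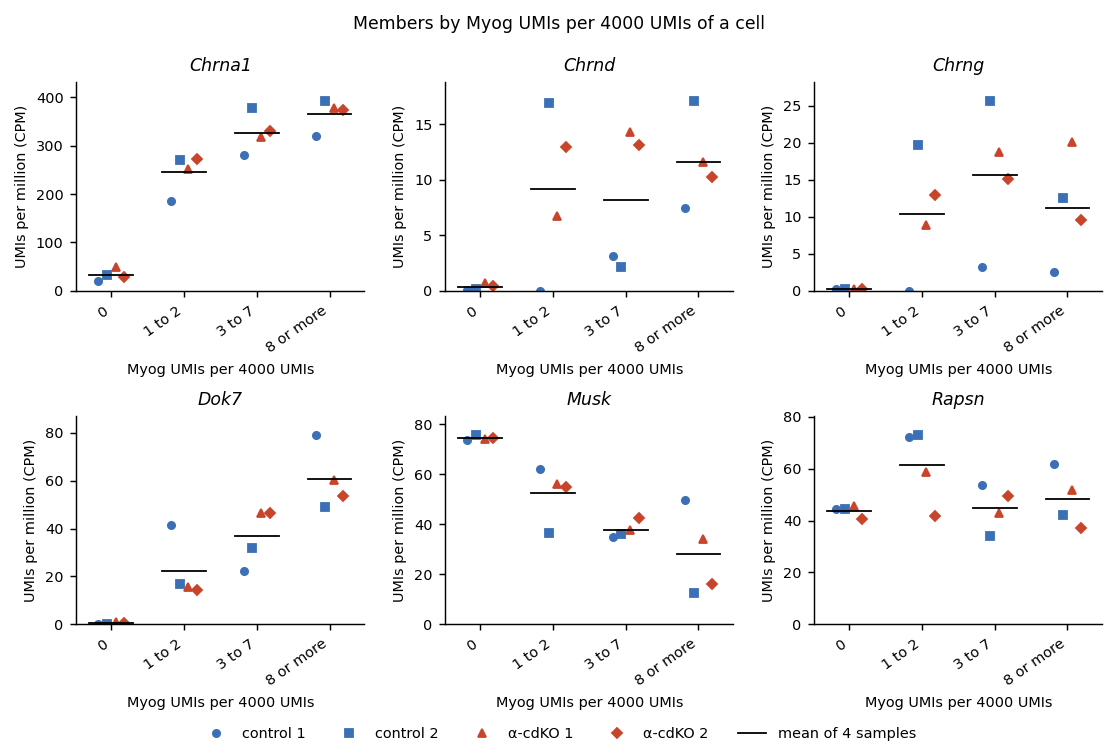
CPM of summed UMIs (vertical axes, linear from 0) of 6 members in myogenic cells grouped by Myog UMIs after thinning each cell to 4000 UMIs (horizontal axes). Symbols are samples (control in blue, α-cdKO in red) and lines are means of 4 samples, with Chrna1 at 245 CPM already in the lowest Myog range, Dok7 reaching 60.5 CPM in the highest and Musk going down to 28.1 CPM.

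Detection at a common depth gave the same contrast between genes. The classes were still those set by Myog and Mymk in all UMIs of a cell, so class membership still depended on depth. After thinning, 53.5% of the Mymk-positive cells had a Mymk UMI. With each cell thinned to 2000 UMIs, Chrna1 was found in 45.6% of 480 Mymk-positive cells, 27.3% of 377 Myog-positive cells, 4.98% of 25925 cells with neither gene and 1.37% of 292 non-myogenic cells. Unthinned, the shares were 92.0%, 62.1%, 15.9% and 8.74%, at median depths of 15085.5, 9611.5, 7356 and 7723 UMIs. The non-myogenic cells are set beside the others as cell types outside the lineage, and they were not free of member transcripts. Musk was found in 7.50%, 10.1%, 12.9% and 2.74% of the same thinned cells. Dok7 was found in 8.96%, 4.51% and 0.0694% of the myogenic classes and in 0 of 292 non-myogenic cells, where up to 1.03% with a UMI at this depth could be missed. Unthinned it was found in 0.324% of the latter. Lrp4 was found in 0.625% of Mymk-positive cells and 0.685% of non-myogenic cells.

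Receptor transcripts were also counted outside the Myog and Mymk classes. Those classes held 33.3% of the Chrna1 UMIs of myogenic cells (24.0%, 36.0%, 32.5% and 36.2% in control 1, control 2, α-cdKO 1 and α-cdKO 2), against 77.4% of Chrng (144 of 186, with 38.5%, 85%, 81.8% and 75% in the same samples), 62.4% of Chrnd (121 of 194), 9.0% of Chrnb1, 5.90% of Rapsn and 3.21% of Musk. They held 5.24% of all UMIs. Most Chrna1 transcripts therefore came from cells in which neither gene was detected, whereas most Dok7 transcripts in each sample, and most Chrng transcripts in each sample but control 1 (5 of 13), did not.

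**Figure D3:**
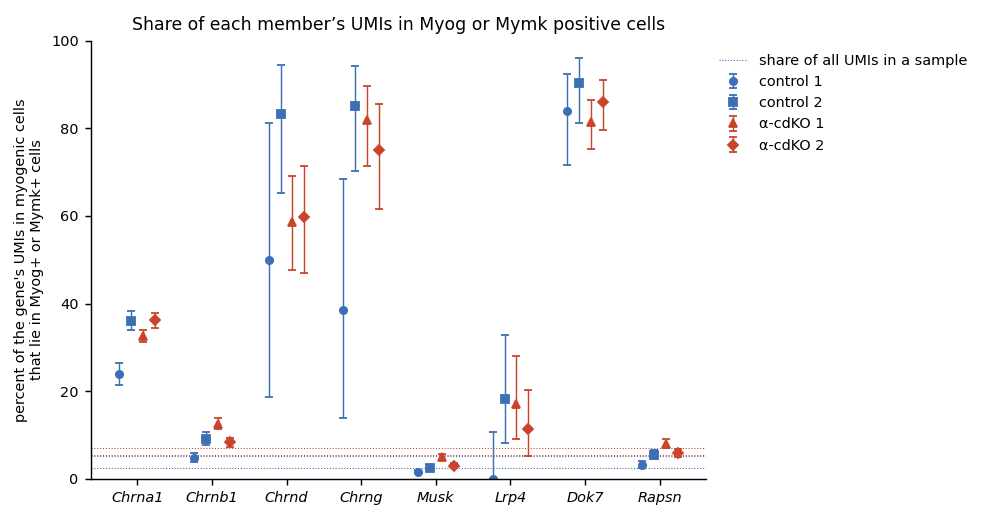
Percent of each member's UMIs in myogenic cells that lay in cells with a Myog or Mymk UMI (vertical axis, 0 to 100), per sample with exact 95% intervals, and as dotted lines the share of all UMIs in those cells. Dok7 (81.3% to 90.4%) lies high in each sample, Chrng lies high in 3 samples and at 38.5% with a wide interval in control 1, Chrna1 lies between 24.0% and 36.2%, and Musk lies below the dotted lines.

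The clusters of myogenic cells, found from other genes with the 9 members left out, show where the earlier transcripts lay. They are described with no test. Chrna1 was lowest in activated-like cluster 0 (8.7, 12.3, 15.5 and 12.2 CPM), a cluster of 12127 cells led by Cxcl3 and Cxcl5, and was 19.3, 28.8, 33.2 and 25.2 CPM in activated-like cluster 1, which was led by chaperone genes. It was 34.1, 64.7, 76.7 and 56.0 CPM in the quiescent-like cluster and 65.4, 119.7, 110.1 and 80.0 CPM in the cycling-like cluster. The differentiated-like cluster was highest, at 188.6, 290.2, 265.5 and 254.7 CPM, and within each sample the order of these 5 clusters was the same. Of neighbours in that order, the quiescent-like and cycling-like clusters overlapped over the samples and the others did not. Control 1 was the lowest sample in each.

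Cells with neither Myog nor Mymk differed among clusters in the same direction. A Chrna1 UMI was found in 7.55% of such cells in activated-like cluster 0, 17.3% in activated-like cluster 1, 21.5% in the quiescent-like, 60.7% in the cycling-like and 66.4% in the differentiated-like cluster (477 of 718 cells). Median depths were 7213, 7936.5, 5858, 15806.5 and 10553.5 UMIs. The quiescent-like cells thus had a larger share with Chrna1 than either activated-like cluster, at the lowest depth.

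Musk followed another order. It was highest in activated-like cluster 0 (93.6, 105.4, 96.8 and 101.5 CPM), where Myod1, the factor of activated MuSCs, was also high, and was 69.4 ± 2.76 CPM (SD, n = 4) in activated-like cluster 1. The quiescent-like cluster was lowest of the 5 at 22.4, 15.6, 20.0 and 17.2 CPM, without overlap with any other myogenic cluster. Rapsn went against Musk, at 82.8 ± 7.41 CPM in the quiescent-like and 24.8 ± 3.26 CPM in activated-like cluster 0. Its cycling-like value of 88.3 ± 24.4 CPM did not differ from the quiescent-like one beyond its spread. Chrnb1 varied least, between 31.8 ± 1.23 CPM in activated-like cluster 0 and 61.4 ± 4.85 CPM in the differentiated-like cluster.

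**Figure D4:**
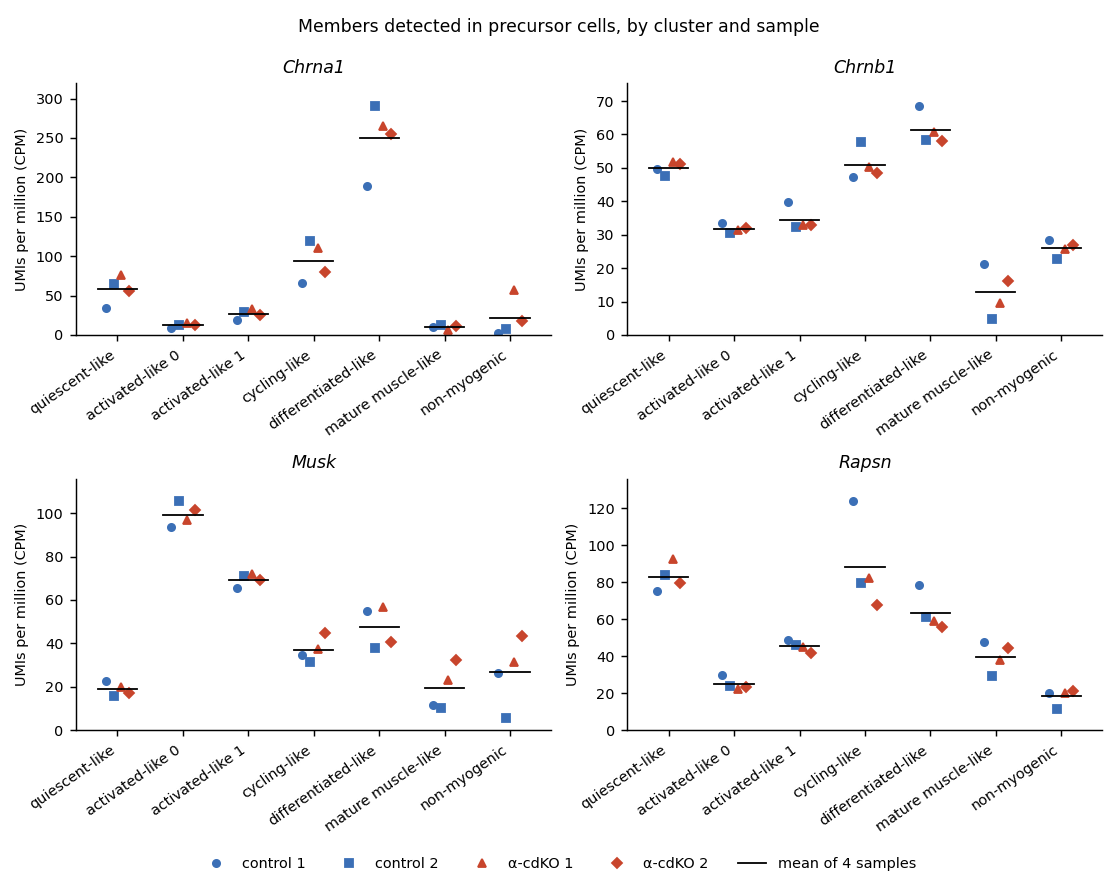
CPM of summed UMIs (vertical axes, linear from 0) of Chrna1, Chrnb1, Musk and Rapsn in the 5 myogenic clusters, the mature-muscle-like barcodes and the non-myogenic cells, with 1 symbol per sample (control in blue, α-cdKO in red) and lines for the mean of 4 samples. Chrna1 is highest in the differentiated-like cluster (mean 249.7 CPM), Musk in activated-like cluster 0 (mean 99.3 CPM) and Rapsn in the cycling-like and quiescent-like clusters.

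Mature-muscle-like barcodes carried transcripts of contractile fibres. There were 1350 of them (123, 834, 280 and 113 in control 1, control 2, α-cdKO 1 and α-cdKO 2), with a median of 3071 UMIs, of which 21.3% came from 10 fibre markers such as Ckm and Acta1, and a median of 0.0766% mitochondrial UMIs. The class is named for its transcripts, and whether its barcodes were cells, fibre fragments or nuclei was not tested. In these sums, fewer barcodes of a type and less RNA per barcode cannot be told apart.

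Receptor subunit transcripts were scarce there. Chrna1 was 9.8, 12.9, 6.4 and 10.8 CPM (6, 45, 8 and 8 UMIs), and in every sample it was far below the Mymk-positive cells, with a fitted log2 difference of -4.62 ± 0.29 (adjusted p = 1.33e-09). Chrnb1 was lower as well, at -2.19 ± 0.33 on the same scale. Chrnd and Chrng had 1 UMI each. Chrne had 3, which all lay in control 2. Over the class of all 4 samples 3 UMIs correspond to 0.493 CPM, the limit that a count of 0 would allow, so these 3 subunits were at or below what this depth can show.

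Rapsn had the most UMIs of the members there, with 211. It was 47.4, 29.3, 37.8 and 44.5 CPM (29, 102, 47 and 33 UMIs), which overlaps the Mymk-positive cells, and the log2 difference of 0.36 ± 0.25 did not pass (adjusted p = 0.247). Dok7 was 8.2, 10.3, 4.0 and 4.0 CPM, lower than in Mymk-positive cells in each sample. Musk was 11.4, 10.0, 23.3 and 32.4 CPM, and its difference of -0.51 ± 0.31 did not pass either (adjusted p = 0.179). Here 53% of 7228 genes were called (25% higher, 28% lower). Chrnd, Chrng and Dok7 entered this fit through the Mymk-positive cells, so they are not counted here. They reached the filter's 7.40 CPM in 0, 0 and 2 of 4 samples of the mature-muscle-like barcodes. Of the other members that passed the filter, Chrna1 and Chrnb1 were called lower, and Musk and Rapsn were not called. Chrna1 and Chrnb1 reached that level in 3 of 4 samples of the mature-muscle-like barcodes, and Musk and Rapsn in 4.

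The class held 2 kinds of barcode. In the 1017 barcodes under 1% mitochondrial UMIs, Chrna1 had 3, 10, 1 and 1 UMIs and Musk 1, 7, 1 and 0, while Rapsn kept 24, 68, 27 and 6 UMIs, or 55.3, 26.2, 34.3 and 24.6 CPM, and Dok7 had 3, 32, 4 and 3. In the other 333, Chrna1 was 21.4 ± 12.0 and Musk 43.7 ± 13.9 CPM (SD, n = 4), and Myod1, which marks activated MuSCs and myoblasts, was 206 to 464 CPM against 20 to 35 CPM in the first kind. Most of the Chrna1 and Musk UMIs (52 of 67 and 86 of 95) thus lay in the barcodes with more mitochondrial RNA, and whether they came from MuSC RNA in those barcodes was not tested. Rapsn was at about the same level in both kinds, 35.1 ± 14.1 and 41.1 ± 10.9 CPM.

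The genotype comparison asked whether these genes differed after loss of α-catenins. Over all myogenic cells 8 of 9 members were tested (Chrne was not) and 0 were called, where 0.171% of 14656 genes were called. Chrna1 was 24.6 and 46.9 CPM in the controls and 63.1 and 41.9 CPM in the α-cdKO samples, so the groups overlapped. Dok7 was 1.2 and 1.8 CPM against 3.0 and 2.1 CPM, and Chrnd 10 and 30 UMIs against 87 and 67 UMIs, or 0.2 and 0.7 CPM against 1.2 and 0.9 CPM. In both of these, and in Chrne with 0 and 0 against 10 and 6 UMIs, every α-cdKO sample was above every control sample. Musk was 73.0 and 73.1 against 71.5 and 72.4 CPM, with both α-cdKO samples slightly lower. After the TMM scaling used in the fit Musk was 73.98 and 72.61 against 69.63 and 74.02 CPM, so its groups overlapped. The share of all genes whose groups separate in this way was not counted. With 2 samples against 2, full separation cannot go below p = 0.33 in an exact permutation test, so it is only described. The genotypes overlapped in Rapsn (44.9 and 44.8 against 45.9 and 41.1 CPM), Chrnb1 (39.4 and 36.4 against 39.0 and 37.0 CPM), Chrng and Lrp4.

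The log2 difference over all myogenic cells, α-cdKO over control, was 0.78 ± 0.28 for Dok7 (adjusted p = 0.669), 1.20 ± 0.52 for Chrnd (adjusted p = 0.713), 0.55 ± 0.31 for Chrna1 (adjusted p = 0.747) and 0.58 ± 0.54 for Chrng (adjusted p = 0.80). Dok7 was the 1 member with an unadjusted p under 0.05, as 7.06% of the genes tested were by edgeR. Control 1 had the smallest share of UMIs in cells with Myog or Mymk, 2.39% against 5.24% in control 2, 7.03% in α-cdKO 1 and 5.33% in α-cdKO 2, and its Myog level was 37.5 CPM against 100.8, 91.8 and 92.9 CPM. Without control 1 the log2 difference was 0.53 for Dok7, 0.57 for Chrnd and 0.16 for Chrna1, and the range over the samples left out was 0.53 to 1.07, 0.57 to 2.29 and 0.16 to 1.07, with none called.

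Within the cells with Myog or Mymk the differences of Chrna1, Chrnd, Chrng and Dok7 were smaller than over all myogenic cells, and those of Musk, Chrnb1 and Rapsn were larger. Neither change was tested. Chrna1 was 285 ± 54.1 CPM in control and 288 ± 5.48 CPM in α-cdKO (SD, n = 2), a log2 difference of 0.03 ± 0.18. Dok7 was 36.5 ± 8.16 and 34.6 ± 0.0112 CPM, a difference of -0.02. The other members tested ranged from -0.12 for Chrnb1 to 0.24 ± 0.41 for Chrnd. Of the 7 members tested 0 were called by edgeR, where 0.0106% of 9407 genes were called and 4.62% had an unadjusted p under 0.05.

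In mature-muscle-like barcodes Musk was the member that differed most, at 11.4 and 10.0 CPM in control and 23.3 and 32.4 CPM in α-cdKO. The log2 difference of 1.38 ± 0.47 had an unadjusted p of 0.0147 and an adjusted p of 0.501 by edgeR, where 0.053% of 5665 genes were called and 9.39% had an unadjusted p under 0.05. Only 4 members passed the filter, and the UMIs were 7 and 35 against 29 and 24. The other 3 were Chrna1 (-0.52 ± 0.55), Chrnb1 (0.30) and Rapsn (0.15). Of these UMIs 6, 28, 28 and 24 lay in the barcodes with 1% or more mitochondrial UMIs, which were 17 of 123, 176 of 834, 82 of 280 and 58 of 113 barcodes of the 4 samples, and the part of that share in the difference was not tested. Without α-cdKO 1 the Musk difference was 1.52 (adjusted p = 0.0269), in a fit in which 2054 genes were called.

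**Figure D5:**
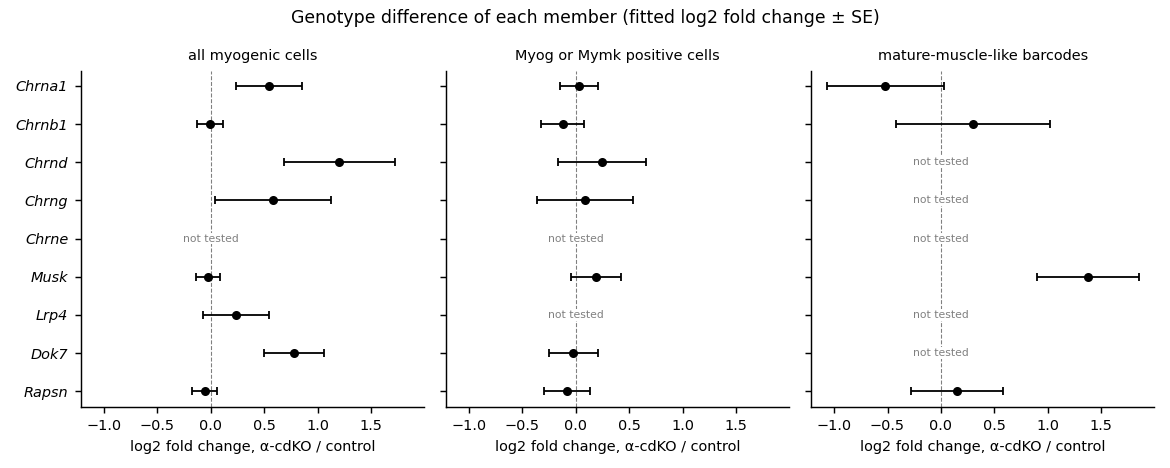
Fitted log2 fold change, α-cdKO over control (horizontal axes), of each member in all myogenic cells, in cells with Myog or Mymk and in mature-muscle-like barcodes, with SE as bars, from 2 samples per genotype. Chrnd (1.20) and Dok7 (0.78) lie right of 0 over all myogenic cells, and every tested member lies between -0.12 and 0.24 in the cells with Myog or Mymk.

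No member was called for a difference of an onset step between genotypes. By edgeR's joint interaction test 0 of 8968 genes were called (6.84% had an unadjusted p under 0.05), and 14 by DESeq2. At the Mymk step alone 0.0223% were called and 6.99% had an unadjusted p under 0.05, and at the Myog step 0% and 4.26%. Chrnd had the lowest joint p among the members (edgeR adjusted p = 0.704), and for Chrna1 the Myog step of α-cdKO minus that of control was -0.53 ± 0.24 on the log2 scale (adjusted p = 0.994). Shares of cells at 2000 UMIs gave no call either, since 2 samples against 2 cannot go below p = 0.33 in an exact permutation test. A Chrna1 UMI was found in 5.10 ± 2.06% of control and 6.53 ± 1.73% of α-cdKO myogenic cells (two-sided exact permutation p = 0.667), and any member in 29.9 ± 1.75% and 30.5 ± 2.04% (p = 0.667 by the same exact test). Rapsn was found in 8.39% and 8.85% of control against 7.65% and 7.67% of α-cdKO cells. Dok7 was found in 0.153% and 0.230% against 0.378% and 0.315%, and Chrnd in 0.038% and 0.069% against 0.173% and 0.126%. The samples of the genotypes separated in Rapsn, Dok7 and Chrnd and in no other member, and the share of all genes that do so was not counted.

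Other genes of the junction moved in both directions, in shares near those of all genes at the Myog step and in mature-muscle-like barcodes. Of 40 listed synapse genes beside the members, 28 were tested at the Myog step, and 5 rose and 4 fell (32.1% called, against 30.3% of all genes), with a median log2 difference of 0.04 against 0.01 over all genes. Lama5, a synaptic laminin chain, rose by 1.81, and Dag1 (dystroglycan, its receptor) by 0.96. In the cells with neither gene Lama5 was 3.3, 3.1, 2.5 and 3.2 CPM, below the filter's 4.41 CPM, so it entered through the classes in which it was high. Sntb2, a syntrophin of the dystrophin complex, fell by 0.86. At the Mymk step 9 rose and 5 fell (50% called, against 35.4%), led by Dtna (dystrobrevin, 3.97) and Cav3 (the caveolin of muscle membrane, 2.97), while Lamb2, the laminin chain of the synaptic basal lamina, fell by 1.93. In Myog-positive cells Dtna was 0, 0, 1.6 and 2.4 CPM and Cav3 4.3, 0, 1.6 and 4.0 CPM. Both stayed below the filter's 4.41 CPM there and entered through the Mymk-positive cells, so the share called is no test of the list. In mature-muscle-like barcodes 6 of 25 were higher than in Mymk-positive cells, Cav3 (1.98) and Des (the intermediate filament desmin, 1.82) among them, and 8 lower, led by Lama5 (-4.81), so that 56% were called against 53% of all genes. Lama5 was 0, 0.6, 3.2 and 1.3 CPM in the mature-muscle-like barcodes and entered that fit through the Mymk-positive cells.

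Among 11 neuronal nicotinic subunit genes 1 was tested, Chrna4. It had 0, 0, 6 and 2 UMIs in cells with neither gene, 3, 3, 5 and 4 in Myog-positive cells, 7, 35, 56 and 73 in Mymk-positive cells and 0 in every sample of the mature-muscle-like barcodes, which allows up to 0.493 CPM over that class. Its level in Mymk-positive cells was 10.8, 24.0, 18.5 and 27.6 CPM, and the rise at the Mymk step was 2.54 on the log2 scale. In Myog-positive cells it was 6.5, 4.3, 2.7 and 3.2 CPM. Chrna4 passed the low-count filter through the Mymk-positive cells, so this rise is a description and not a test.

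Genes known to respond to denervation, a condition in which receptor genes are switched on along the whole fibre, were read as a further list of 11, of which 9 were tested. At the Myog step 2 of them rose, among them Fbxo32, a ubiquitin ligase of muscle atrophy (1.91), and 2 fell, Runx1 (-0.54) and Gadd45a (-0.52), so that 44.4% were called against 30.3% of all genes. At the Mymk step 5 rose, led by the developmental myosin genes Myh8 (5.00) and Myh3 (3.48) and by Sln, a regulator of the calcium pump (3.02), while Ncam1 (-0.88) and Hdac4 (-0.55) fell (77.8% called, against 35.4%). In Myog-positive cells Myh8 was 2.2, 0, 0 and 0.8 CPM, Myh3 4.3, 0, 4.8 and 0.8 CPM and Sln 0, 0, 1.1 and 8.0 CPM. Myh8, Myh3 and Sln passed the low-count filter mainly through the Mymk-positive cells, so the share called is no test of the list. In mature-muscle-like barcodes 3 were higher, Trim63 at 161.8, 186.7, 229.0 and 51.2 CPM among them, and 4 lower (77.8% called, against 53%). Trim63 was 0, 0, 0.33 and 0 CPM in Mymk-positive cells, so it too passed the filter through the class in which it was high. No gene of the 3 lists was called in a genotype comparison.

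The genes most like Chrna1 over the 28 sums of 4 samples by 7 classes were C1qtnf3 and Ppp1r14b (both r = 0.93), Gm28653 (r = 0.92), Gm20033 and Lix1 (both r = 0.91), with Pearson's r on log2(CPM + 5). For Chrng they were Isyna1 (0.87), Chn2, Mymk and Spon1 (0.86 each) and Pak3 (0.84), and for Lrp4, at its low level, Slmap (0.83) and Cntf (0.82) led. Among the members themselves Chrnd and Chrng were most alike (0.91), followed by Chrna1 with Chrnd (0.78), while Musk and Chrna1 had an r of 0.06. The 28 sums share samples and differ in depth, so these values are descriptions, and for Chrne, with 20 UMIs in all, none is given.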

How the data were processed

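Single-cell libraries (10x Genomics 3′ v3) of 4 samples were analysed, 2 per genotype, grouped by the genotype given in their labels. The deposited values are raw UMI counts per gene and barcode, which the authors made with Cell Ranger against mouse GRCm38 (mm10), with Seurat 4.0.3 also named in the submitters' processing notes. Whether intronic reads were counted is not given in the sources used here. Kept barcodes had 1000 or more UMIs, 400 or more genes and less than 15% of UMIs from mitochondrial genes. Doublets stayed in, since the caller run here (Scrublet's method) marked 7 of 28790 cells, and removing the highest scores was an alternative.

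Cells were clustered with Seurat 5.3.0 (R 4.3.3) on 2000 variable genes without the 9 members, 30 principal components, an implementation of Harmony over the 4 libraries and Louvain resolution 0.2. Clusters were named from fixed marker lists, and splitting mixed clusters again was a rule added after seeing the data. The non-myogenic cells were endothelial-like, fibro-adipogenic-like and immune-like. UMIs were summed per sample and class, filtered with filterByExpr, scaled with TMM and tested with edgeR 4.0.16 (glmQLFit, glmQLFTest) over all genes, with Benjamini-Hochberg adjustment and a threshold of 0.05. Class comparisons had a term for each sample. DESeq2 1.42.0 was an alternative. The fits were tested on simulated counts with known folds. Promoter and gene positions came from RefSeq and GENCODE on GRCm38.

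All 9 members are named in each comparison, and of other lists up to 3 genes per direction with the largest called differences and at least 10 CPM, apart from genes that are not reported here. The members and lists were chosen with earlier results of these data known. Alternatives covered scaling, the low-count filter, the cell filter, integration, resolution, doublets, gates, the mature class, the replicate block and leaving out each sample. The replicate numbers of the labels did not pair the samples, with correlations of same-numbered deviations of -0.20, -0.09 and -0.09 in the 3 genotype comparisons.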

Additional observations from a re-analysis of the deposited data

Results flagged for a closer look

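In the 309 non-myogenic cells 3 members were picked because each α-cdKO sample lay above each control sample with more than 3 UMIs. The share of all genes that meet this rule was not counted. Chrna1 was 2.4 and 7.6 CPM in the controls and 57.2 and 18.0 CPM in the α-cdKO samples, a mean of 37.6 CPM in α-cdKO. Of the 51 UMIs of α-cdKO 1, 40 lay in 6 fibro-adipogenic-like cells, with 14 in 1 cell, and 2 cells of that class and sample had a Myog UMI. Musk was 26.1 and 5.7 CPM against 31.4 and 43.5 CPM, a mean of 37.5 CPM in α-cdKO, and Rapsn was 20.2 and 11.3 CPM against 20.2 and 21 CPM, a mean of 20.6 CPM. For Rapsn, control 1 and α-cdKO 1 were nearly equal. These differences were not tested, and the part of myogenic RNA or mixed barcodes in them was not tested either.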

How the results depend on the processing

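The Myog steps of Chrna1 and Musk and the lower Chrna1 and Chrnb1 of mature-muscle-like barcodes kept their direction and call in every alternative run. The Mymk steps rested on how cells were gated, as given beside them, and genes called there went from 3173 to 1633 with 2 UMIs asked and 1612 with gates at 4000 UMIs, where Chrng was 0.38 and 0.52, Dok7 0.52 and 0.51, and Musk -0.27 and -0.44. Fewer cells entered both. Without the low-count filter the Myog step of Chrnb1 was 0.38 and that of Rapsn 0.22, both no longer called. Musk was called lower in mature-muscle-like barcodes with no integration (-0.64), highest doublet scores removed (-1.27) or at least 2% of UMIs on markers (-0.65). The cause of these changes was not tested. With DESeq2's size factors in edgeR the median of all genes moved by 0.14 (log2) in the comparison of mature-muscle-like barcodes, and with no filter by -0.19 at the Myog step, and no member turned in either. Counts from 0 to 30 UMIs limit Chrnd, Chrng, Dok7 and Lrp4 in the smaller classes.

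Genes called between genotypes were few and unstable. Over all myogenic cells 25 became 120 with DESeq2, 14 with no filter, 13 with the replicate block and 198 with crossed numbers. In cells with Myog or Mymk 1 became 9 with DESeq2, 88 with no filter, 2 at 2000 UMIs per cell, 7 without the highest doublet scores, 9 with the block and 39 with crossed numbers. In mature-muscle-like barcodes 3 became 9, 40, 7, 0 and 20 in that order of DESeq2, no filter, 2000 UMIs, doublets and block, 22 with crossed numbers and 8 with the 2% rule. For onset by genotype 0 became 14 with DESeq2, 115 with no filter, 1 without the highest doublet scores, 15 with 2 UMIs and 2 with gates at 4000 UMIs. The crossed pairing was added after seeing the data. No member was called in any of these fits, including those with a replicate block.

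Many of the member differences between genotypes that turned were near 0 or rested on few UMIs. With no filter these were Chrnb1 over all myogenic cells (0.00498), Dok7 in cells with Myog or Mymk (0.0081) and Chrnd at the Myog step by genotype (0.0085). Chrnd at that step was also 0.54 at 2000 UMIs per cell and 0.013 without the highest doublet scores, where Dok7 in cells with Myog or Mymk was 0.016. With 2 UMIs asked, the Mymk step of Chrnb1 was -0.24, and by genotype the Myog steps of Chrng and Rapsn were -0.89 and -0.24 and the Mymk steps of Chrnb1, Chrng, Dok7 and Rapsn -0.041, 1.04, 0.11 and 0.18. With gates at 4000 UMIs the Myog step of Rapsn was -0.097 and the Mymk steps of Chrna1 and Chrnd -0.24 and 0.58 by genotype. The share of cells with Chrng, α-cdKO minus control, was 0.10 points at 4000 UMIs and 0.058 without the highest doublet scores, and that of Rapsn was 0.30 points there. With the main settings the Rapsn difference was -0.96 points, from 8.62 ± 0.32% of control and 7.66 ± 0.013% of α-cdKO cells (SD, n = 2). That turn was neither near 0 nor based on few UMIs.

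Leaving out 1 sample at a time gave 2 to 53 genes between genotypes over all myogenic cells, 4 to 38 in cells with Myog or Mymk (38 without control 1, 22 without control 2, 4 without α-cdKO 1, 9 without α-cdKO 2), 7 to 2054 in mature-muscle-like barcodes (2054 without α-cdKO 1, 50 without α-cdKO 2) and 0 to 32 for onset by genotype. It gave 1716 to 2372 at the Myog step (1716 without α-cdKO 1) and 2508 to 4760 for mature-muscle-like barcodes (2508 without control 2). The share of cells with any member moved between -0.75 and 2.13 points and turned without control 1 (-0.55) and without α-cdKO 1. In those fits a genotype with 1 sample is assumed to vary like the other. Among members between genotypes over all myogenic cells, the ranges that crossed 0 were -0.075 to 0.069 (Chrnb1), -0.060 to 1.71 (Chrng), -0.023 to 0.54 (Lrp4) and -0.073 to 0.014 (Musk). In cells with Myog or Mymk they were -0.16 to 0.28 (Chrna1), -0.26 to 0.016 (Chrnb1), -0.17 to 1.25 (Chrnd), -0.42 to 1.44 (Chrng), -0.23 to 0.17 (Dok7), -0.25 to 0.082 (Rapsn) and -0.060 to 0.43 (Musk), and in mature-muscle-like barcodes -0.79 to 1.28 (Chrnb1) and -0.25 to 0.41 (Rapsn). For the Myog step by genotype they were -0.84 to 8.30 (Chrnd) and -0.67 to 9.61 (Chrng), and for the Mymk step -0.20 to 0.27 (Chrna1), -8.83 to 0.076 (Chrng), -0.60 to 0.35 (Musk), -1.09 to 0.65 (Dok7) and -0.53 to 0.046 (Rapsn). Values past 8 come from a control left with 0 UMIs and are no bound. Shares of cells crossed 0 for Chrna1 (-0.027 to 2.88 points), Chrnb1 (-0.61 to 0.22), Chrng (-0.063 to 0.041) and Musk (-0.016 to 0.47).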

Other observations

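Lrp4, the agrin receptor, had its highest class mean outside the lineage, at 5.42 ± 5.29 CPM (SD, n = 4) in the non-myogenic cells against 0.71 to 2.22 CPM in the myogenic clusters, from 14 UMIs. The spread between samples was as large as the mean. In the quiescent-like cluster Lrp4 was 1.47 ± 0.17 CPM and in activated-like cluster 0 it was 0.72 ± 0.06 CPM, with no overlap between the samples of the 2 clusters.

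Within the 5 myogenic clusters Dok7, Chrnd and Chrng lay mainly in the differentiated-like cluster, which held 4514 of 10546 Chrna1 and 1068 of 8759 Chrnb1 UMIs. Dok7 had 418 of its 495 myogenic UMIs there, Chrnd 158 of 194 and Chrng 152 of 186. The cycling-like cluster held 23, 10 and 4 UMIs of these genes.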
